A study of Mus musculus with 6 samples.

Results

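The genes described are 8 subunits of ion-pumping ATPases: the sodium pump beta subunits Atp1b1, Atp1b2 and Atp1b3, the endoplasmic reticulum calcium pump Atp2a2, and the plasma membrane calcium pumps Atp2b1, Atp2b2, Atp2b3 and Atp2b4. They were taken by symbol from the rows that the array annotation assigns to a single gene, and all 8 had 1 such row among the 17858 genes measured. Cerebellar RNA of C57BL/6 mice was hybridised to Affymetrix exon arrays at 6wk (6 weeks of age, 3 arrays) and at P7 (postnatal day 7, 3 arrays), with no treatment or mutation named at either age. The series was made to relate expression to changes in 5-hydroxymethylcytosine, an oxidised form of methylated cytosine. Whether replicates are separate animals is not stated, so each p-value covers only the spread between these arrays, which may be partly technical. Values are the deposited log2 expression levels, and age differences are taken within a gene. Levels of different genes are brought together in marker averages, in ratios within an array and against an array's lower quartile, not to rank genes.

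The sodium pump exchanges sodium for potassium across the plasma membrane and pays for the ion gradients that neurons spend in firing. Its beta subunit is needed to fold the catalytic alpha subunit and carry it to the cell surface. Calcium pumps end calcium signals, either by moving the ion into the endoplasmic reticulum or by expelling it from the cell. The cerebellum is rich in both kinds. Mice that lack functional Atp2b2 are ataxic and deaf, and mutations of human ATP2B3 cause an X-linked congenital ataxia.

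The P7 arrays were not alike. P7 replicate 2 correlated with P7 replicate 1 at 0.952 across the 23750 rows, against 0.984 to 0.989 between the 6wk arrays. The 5 granule neuron markers (Gabra6, Cbln1, Cbln3, Neurod1 and Grin2c) averaged 11.34 to 11.61 in the 6wk arrays, against 10.31, 7.06 and 9.61 in P7 replicates 1, 2 and 3. The 5 measured Purkinje cell markers of 6 listed averaged 9.96 to 10.19 in the 6wk arrays, against 9.62, 7.88 and 9.10 in the P7 arrays in the same order. The 4 markers of midbrain and hindbrain monoamine neurons (Slc6a3, Th, Tph2 and Slc6a4) ran the other way in the P7 arrays, with 6.78 to 7.63 at 6wk, against 6.48, 9.92 and 9.27 in P7 replicates 1, 2 and 3. In the granule neuron list 2 of the 5 markers were called higher at 6wk and 0 lower, as in the Purkinje cell list. Single markers did not all follow their list mean. Car8 of the Purkinje cell list read 6.58, 6.76 and 6.61 in P7 replicates 1, 2 and 3. In P7 replicate 1, Neurod1 (12.20) and Slc1a6 of the Purkinje cell list (10.51) lay above every 6wk array. No array holds a value at 0 (array minima 1.91 to 2.09), so a low marker value may lie near the floor. Gabra6 read 4.91 in P7 replicate 2, below that array's lower quartile of 7.03. Each member is therefore given with and without P7 replicate 2, a fit that keeps P7 replicate 3 with its high monoamine neuron markers. With P7 replicate 1 as the only P7 array, the log2 differences (6wk minus P7) were 0.39 for Atp1b1, 0.73 for Atp1b2 and 0.07 for Atp1b3. In that fit they were 0.57 for Atp2a2, -0.61 for Atp2b1, 0.55 for Atp2b2, 0.94 for Atp2b3 and 0.31 for Atp2b4. The RNA came from bulk tissue given as cerebellum, so fewer cells of a type and less RNA per cell cannot be told apart. Whether the same region was sampled for every array was not tested.

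Sequence before a listed transcript start in the RefSeq table (GRCm38.p6) was matched for 5 of the 8 genes. The plasma membrane pumps Atp2b2, Atp2b1 and Atp2b4 are shown because they rose, fell and did not pass the test of age, and because the study concerns modified cytosines. Each line holds the 250 bases before the gene's most upstream listed start, read on the gene's strand, with every CG in capitals. The windows lie at chr6:114042081-114042330 (minus strand), chr10:98914392-98914641 (plus strand) and chr1:133753748-133753997 (minus strand), in that order.
Atp2b2: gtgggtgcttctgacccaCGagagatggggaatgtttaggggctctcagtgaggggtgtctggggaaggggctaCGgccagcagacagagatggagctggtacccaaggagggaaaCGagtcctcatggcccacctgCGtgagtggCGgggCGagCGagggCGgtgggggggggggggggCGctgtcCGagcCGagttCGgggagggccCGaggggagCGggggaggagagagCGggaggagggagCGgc
Atp2b1: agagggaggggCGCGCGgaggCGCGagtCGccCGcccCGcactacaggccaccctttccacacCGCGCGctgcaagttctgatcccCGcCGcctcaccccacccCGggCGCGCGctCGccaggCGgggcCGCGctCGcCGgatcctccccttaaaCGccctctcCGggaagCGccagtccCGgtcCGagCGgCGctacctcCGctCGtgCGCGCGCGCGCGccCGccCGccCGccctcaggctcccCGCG
Atp2b4: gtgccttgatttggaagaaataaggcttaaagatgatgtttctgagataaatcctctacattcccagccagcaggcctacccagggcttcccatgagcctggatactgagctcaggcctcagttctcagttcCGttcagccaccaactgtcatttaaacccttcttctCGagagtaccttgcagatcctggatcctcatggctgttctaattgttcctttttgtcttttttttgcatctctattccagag
The Atp2b2 window holds 16 CG, the Atp2b1 window 43 and the Atp2b4 window 2, where the median of 27026 windows of the same length was 6. Fewer CG were found in 74.5% of those windows than in that of Atp2b2, in 99.3% than in that of Atp2b1 and in 19.5% than in that of Atp2b4. The GC box GGGCGG or its reverse complement CCGCCC occurred 1 time for Atp2b2, 4 times for Atp2b1 and 0 times for Atp2b4, and at least once in 33% of all windows. The windows of Atp1b1 and Atp1b3 each held 24 CG. These are letters in a window and carry no measurement of methylation or binding. The Atp2b4 window rests on 1 listed start and ends in a pyrimidine-rich stretch before ag, the form of an intron's end. It may therefore not be a promoter, and its CG count is not read as that of one. Whether any of these starts is used in cerebellum was not tested.

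At 6wk, 4 of the 8 pump genes were higher than at P7 and 1 was lower, while 3 did not pass the test. The rises were in Atp2b3, Atp1b2, Atp2b2 and Atp2a2, by factors of 2.16, 1.58, 1.51 and 1.41. The fall was in Atp2b1, to 0.697 of its P7 level. The call is a Benjamini-Hochberg adjusted p under 0.05 in limma's moderated test, adjusted over all 17858 genes, of which 21.7% were called (8.26% higher and 13.4% lower). Without P7 replicate 2 the members were again called 4 higher and 1 lower, among 26.8% of all genes. The ages did not overlap for 6 of the 8 members, as for 42.1% of all genes. The median log2 difference was 0.35 over the 8 members and -0.05 over all genes. Higher and lower calls were split differently by scaling: lower genes made up 61.9% of all calls as deposited, 45.4% after quantile normalization and 44.8% after median centring, while the members were called 4 higher and 1 lower under each.

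**Figure D1:**
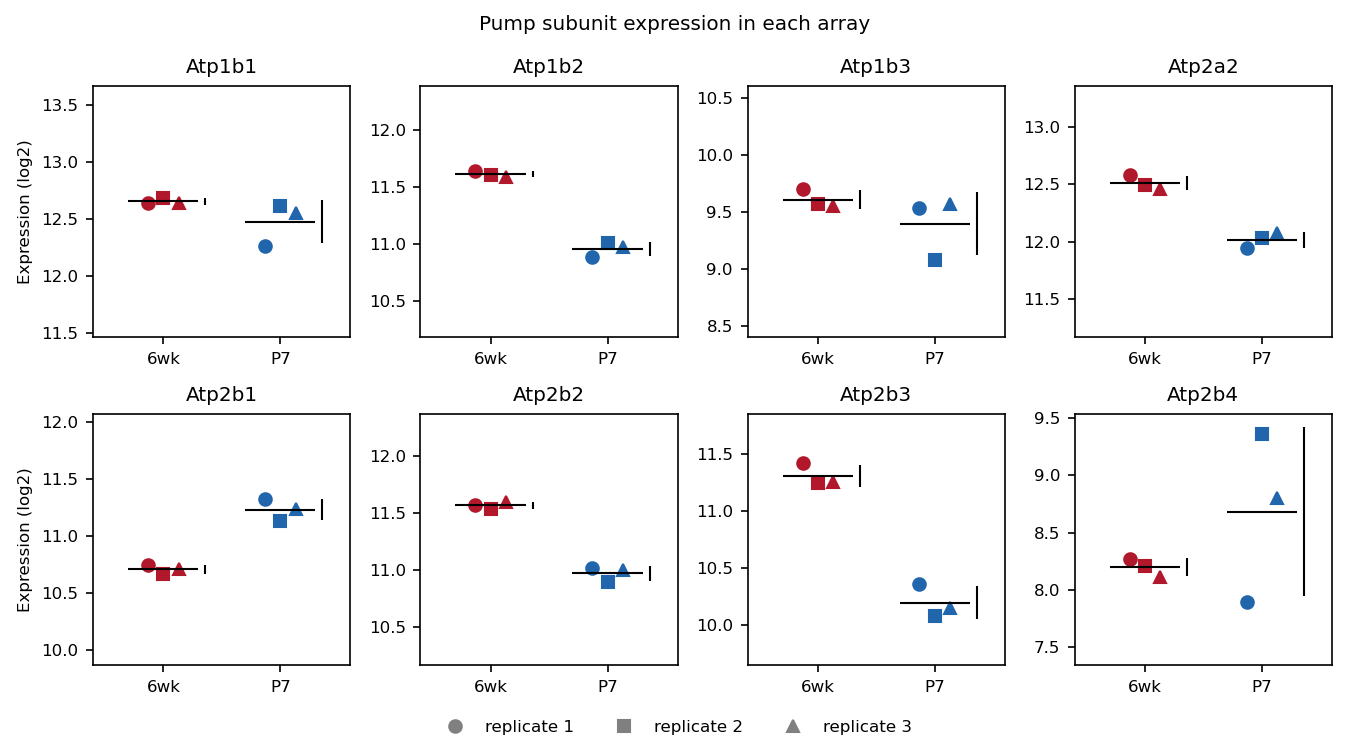
Log2 expression (vertical axes, each 2.2 units high) of the 8 pump genes in the 3 arrays at 6wk (left, red) and the 3 at P7 (right, blue). Horizontal lines are group means and vertical lines span 1 SD on either side. The ages overlap only for Atp1b3 and Atp2b4, Atp1b1 is separated by a narrow gap, and the P7 values of Atp2b4 run from 7.89 to 9.36.

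Among the sodium pump beta subunits only Atp1b2 passed the test. Atp1b2, also known as the adhesion molecule on glia, read 11.65, 11.61 and 11.59 in 6wk replicates 1, 2 and 3, against 10.89, 11.01 and 10.98 in P7 replicates 1, 2 and 3. Every 6wk array lay above every P7 array, and the means were 11.61 ± 0.03 at 6wk and 10.96 ± 0.06 at P7 (SD, n = 3 each). The log2 difference was 0.66 (SE 0.08, limma adjusted p = 0.00324), and 0.68 without P7 replicate 2 (adjusted p = 0.00319). Markers of Bergmann glia and astrocytes (5 of 5 measured) averaged 9.76 to 9.86 at 6wk, against 8.67 to 9.71 at P7, with 1 of the 5 called higher and 1 lower. Their part in the Atp1b2 result was not tested.

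Atp1b1, the widespread beta subunit of neurons, read 12.64, 12.69 and 12.64 in the 6wk arrays, against 12.27, 12.61 and 12.55 in the P7 arrays. The 6wk values were all above the P7 values, but the nearest pair differed by little and P7 replicate 1 lay below its fellows. The log2 difference of 0.18 did not pass (95% interval -0.09 to 0.45, limma adjusted p = 0.312). It was 0.25 without P7 replicate 2 and 0.40 after quantile normalization, both short of the threshold (adjusted p = 0.160 and 0.0757). With P7 replicate 1 as the only P7 array it was 0.39 and passed (adjusted p = 0.0464), in a fit that has no P7 spread of its own.

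Atp1b3, a beta subunit that is also found outside the nervous system, read 9.70, 9.57 and 9.55 in the 6wk arrays, against 9.54, 9.08 and 9.57 in the P7 arrays. The ages overlapped, and P7 replicate 2 was lower than the other 5 arrays. The log2 difference of 0.21 did not pass (95% interval -0.15 to 0.57, limma adjusted p = 0.363), and it was 0.05 without P7 replicate 2. These intervals leave room for a rise of up to 1.36-fold in Atp1b1 and 1.48-fold in Atp1b3.

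Atp2a2 encodes SERCA2, the pump that refills the endoplasmic reticulum with calcium in neurons and most other cells. It read 12.58, 12.49 and 12.46 in the 6wk arrays, against 11.94, 12.03 and 12.07 in the P7 arrays, with no overlap. The log2 difference was 0.50 (SE 0.08, limma adjusted p = 0.00922), with group means of 12.51 ± 0.06 at 6wk and 12.01 ± 0.07 at P7 (SD, n = 3 each). Without P7 replicate 2 it was 0.51 (adjusted p = 0.0112).

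The 4 plasma membrane calcium pumps did not move as a block. Atp2b3, a pump with restricted, mainly neuronal expression, showed the largest difference of the 8 genes. It read 11.42, 11.25 and 11.26 in the 6wk arrays, against 10.36, 10.08 and 10.15 in the P7 arrays. All 6wk arrays lay well above all P7 arrays, and the spread within an age (0.17 at 6wk and 0.28 at P7, highest minus lowest) was a small part of the difference. The log2 difference was 1.11 (SE 0.11, limma adjusted p = 0.00165), a 2.16-fold rise (95% interval 1.80 to 2.58), and 1.05 without P7 replicate 2. It ranked 283 from the top among the differences of all 17858 genes. The gene lies on the X chromosome, and Eif2s3y, a Y-linked gene, read 10.49 in 6wk replicate 1 but 5.42 to 5.66 in the other 5 arrays. Without 6wk replicate 1 the Atp2b3 difference was 1.05 (limma adjusted p = 0.0109).

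Atp2b2, a fast calcium pump abundant in Purkinje cells, read 11.56, 11.53 and 11.60 in the 6wk arrays, against 11.01, 10.89 and 11.00 in the P7 arrays. The ages did not overlap. The means were 11.56 ± 0.03 at 6wk and 10.97 ± 0.06 at P7 (SD, n = 3 each), and the log2 difference was 0.60 (SE 0.08, limma adjusted p = 0.00435). Without P7 replicate 2, the array with the lowest mean of the Purkinje cell markers, the difference was 0.56 (adjusted p = 0.00523).

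Atp2b1, the broadly expressed member of the family, read 10.75, 10.67 and 10.71 in the 6wk arrays, against 11.32, 11.13 and 11.24 in the P7 arrays. It was lower in each 6wk array than in any P7 array, the opposite of Atp2b2 and Atp2b3. The means were 10.71 ± 0.04 at 6wk and 11.23 ± 0.09 at P7 (SD, n = 3 each), and expression fell by 0.52 on the log2 scale (SE of the limma estimate 0.09, adjusted p = 0.00880). The difference was -0.57 without P7 replicate 2 (adjusted p = 0.00573). Omitting P7 replicate 3 ended the call (-0.52, adjusted p = 0.0516, in a fit that called 9.22% of all genes), and it held when any of the other 5 arrays was omitted.

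Atp2b4, a pump best known for its part in mouse sperm motility, read 8.27, 8.21 and 8.11 in the 6wk arrays, against 7.89, 9.36 and 8.80 in the P7 arrays. The 6wk arrays lay close together, whereas the P7 arrays spanned 1.47 and enclosed them. The log2 difference was -0.49 with a wide error (95% interval -1.32 to 0.35, limma adjusted p = 0.367). It was -0.15 without P7 replicate 2 (adjusted p = 0.719), -0.88 without P7 replicate 1 (adjusted p = 0.0195) and 0.31 with P7 replicate 1 as the only P7 array (adjusted p = 0.114). The order of the P7 arrays (replicate 2 highest, then 3, then 1) was also that of the monoamine neuron markers, for example Slc6a3, the dopamine transporter, with 6.78, 10.76 and 9.84 in P7 replicates 1, 2 and 3. The part of those markers in the Atp2b4 values was not tested.

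**Figure D2:**
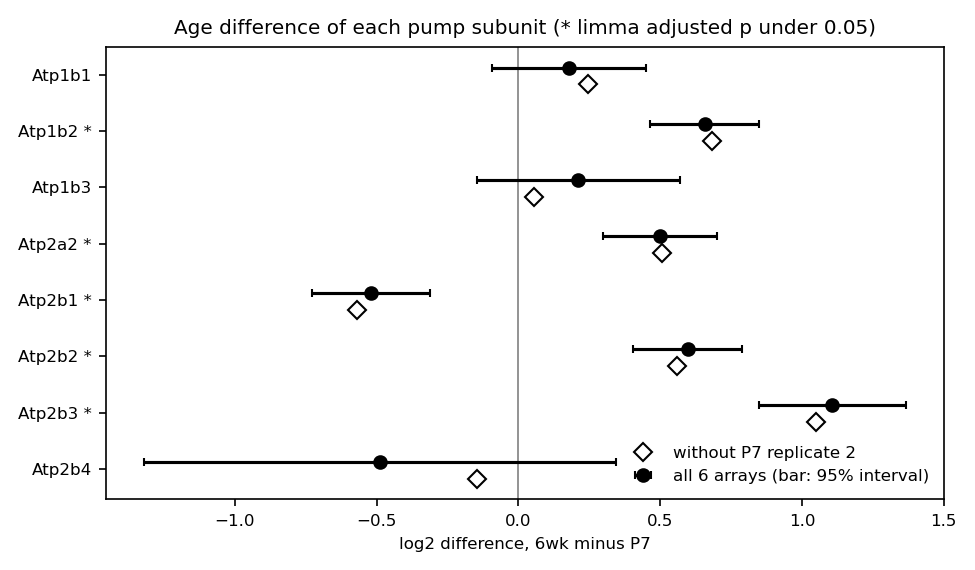
Log2 difference, 6wk minus P7 (horizontal axis), of the 8 pump genes with all 6 arrays (filled, bars are 95% intervals of limma) and without P7 replicate 2 (open). Asterisks mark the 5 genes with an adjusted p under 0.05, and the open symbol leaves its bar for none of them.

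**Figure D3:**
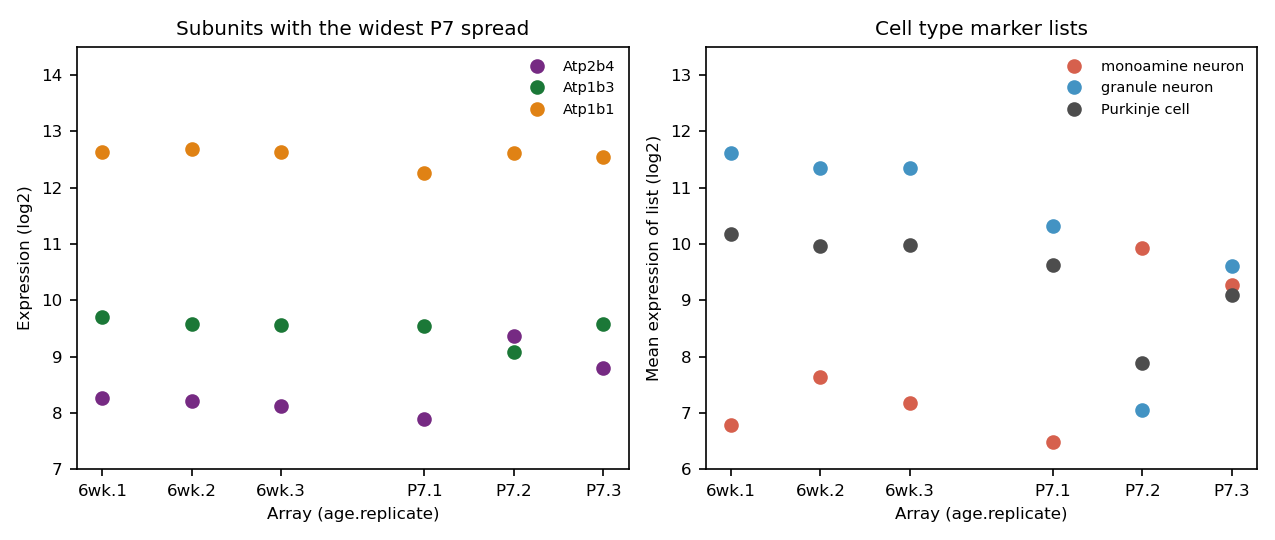
Log2 expression in each array (6wk arrays left, P7 arrays right) of the 3 pump genes with the widest P7 spread, and the mean log2 expression of 3 marker lists. In P7 replicate 2 Atp2b4 and the monoamine neuron list are at their highest (9.36 and 9.92), and Atp1b3 and the granule neuron and Purkinje cell lists at their lowest (9.08, 7.06 and 7.88).

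A ratio between family members within an array is not altered by shifting an array's log2 values as a whole, although quantile normalization can alter it, and 9 such pairs were compared (3 of the beta subunits and 6 of the plasma membrane pumps). The log2 ratio of Atp2b1 to Atp2b3 was -0.60 ± 0.06 at 6wk and 1.03 ± 0.07 at P7 (SD, n = 3 each), a change of -1.63. The log2 ratio of Atp2b1 to Atp2b2 was -0.86 ± 0.04 at 6wk and 0.26 ± 0.04 at P7 (SD, n = 3 each), a change of -1.12. Only the change of a ratio between ages is read here, since its level depends on the probes. Atp2b3 also gained on Atp2b2: their ratio, Atp2b2 to Atp2b3, was 0.26 ± 0.10 at 6wk and 0.77 ± 0.10 at P7 (SD, n = 3 each). Among the beta subunits, the ratio of Atp1b1 to Atp1b2 changed by -0.48 and that of Atp1b2 to Atp1b3 by 0.45. The ages did not overlap in 7 of the 9 pairs, and each of these 7 had p = 0.1 in a two-sided exact permutation test over arrays, the smallest p that 3 against 3 arrays can give (0.129 adjusted over the 9 pairs). The ages overlapped for Atp1b1 with Atp1b3 and for Atp2b1 with Atp2b4.

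Genes that work with these pumps were examined from 5 lists with 49 entries, of which 41 were measured. Of the 41, 10 were higher and 5 lower at 6wk (36.6% called, against 21.7% of all genes). The median log2 difference was 0.08, against -0.05 over all genes. Without P7 replicate 2 the counts were also 10 and 5, where 26.8% of all genes were called, with a median of 0.12. The counts of each list below stand beside 8.26% of all genes called higher and 13.4% called lower. The other 8 entries were not analysed here.

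Among 12 other measured genes of the sodium pump, which are 2 further subunits, neither called, and regulators or interacting proteins, 4 fell and 1 rose (median -0.05). Fxyd6, which belongs to the small FXYD proteins that tune the pump's ion affinity, read 10.40, 10.27 and 10.08 in the 6wk arrays, against 11.78, 11.75 and 11.69 in the P7 arrays. Its groups were far apart, and it fell by 1.49 (SE 0.10, limma adjusted p = 0.000700). Nkain3, a protein that interacts with the sodium pump, fell by 1.93 (SE 0.19, limma adjusted p = 0.00162). The calls of Fxyd7 and Fxyd2 did not hold on leaving out several of the arrays, although the differences stayed below 0. Fxyd7, a brain FXYD protein, read 8.01, 8.53 and 8.57 in the 6wk arrays, against 9.09, 10.47 and 9.99 in the P7 arrays (log2 difference -1.48, adjusted p = 0.0300). Omitting P7 replicate 3 or any of the 3 6wk arrays ended its call (adjusted p up to 0.105), while the difference ranged from -1.86 to -1.17 over the 6 fits. Fxyd2, the gamma subunit known from kidney, read 6.79, 6.58 and 7.03 in the 6wk arrays, against 7.65, 8.53 and 8.06 in the P7 arrays (log2 difference -1.28, adjusted p = 0.0127). Its call ended on omitting P7 replicate 3, 6wk replicate 1 or 6wk replicate 2 (adjusted p up to 0.0539), with differences of -1.50 to -1.05. In both genes P7 replicate 2 was highest and P7 replicate 1 lowest among the P7 arrays, as in the monoamine neuron markers, whose part was not tested. Atp1b1, Atp1b2 and Nkain2 had that order too, so it is not particular to Fxyd7 and Fxyd2. With P7 replicate 1 as the only P7 array the differences were -0.72 for Fxyd7 and -0.85 for Fxyd2. The 6wk mean of Fxyd2 (6.80) lay below the lower quartile of every array (6.89 to 7.03), so the size of its difference is uncertain. The rise was in Fxyd1, phospholemman, named after its value was seen, which read 10.71, 10.76 and 10.64 in the 6wk arrays, against 9.93, 9.44 and 9.50 in the P7 arrays (log2 difference 1.08, adjusted p = 0.00429).

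Of 6 other calcium pump genes and pump inhibitors, 2 rose and 0 fell (median 0.30). Atp2a3, the SERCA3 pump, known in Purkinje cells, read 10.01, 9.62 and 9.79 in the 6wk arrays, against 8.42, 7.21 and 7.98 in the P7 arrays. Each 6wk array was more than 1 log2 unit above each P7 array, and the difference was 1.93 (SE 0.30, limma adjusted p = 0.00703). The lowest P7 value was in replicate 2, which also had the lowest mean of the Purkinje cell markers. The part of those markers was not tested. Pln, phospholamban, the inhibitor of SERCA2 in heart, rose by 0.78 (adjusted p = 0.00599), with means of 6.76 at 6wk and 5.99 at P7 that both lay below the lower quartile of every array.

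The 4 measured partners of the plasma membrane pumps gave 0 calls in limma, and 2 (Nptn and Nos1) at an unadjusted p under 0.05, which 35.7% of all genes reached. The ages did not overlap for any of the 4 (3 higher and 1 lower at 6wk), as for 42.1% of all genes. Nos1 differed by 0.36 (95% interval 0.002 to 0.71, limma adjusted p = 0.138). Nptn, neuroplastin, and Bsg, basigin, which form complexes with these pumps, differed by 0.22 (95% interval 0.03 to 0.40, adjusted p = 0.0945) and 0.03 (95% interval -0.15 to 0.21, adjusted p = 0.820).

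Of 9 sodium-calcium exchangers, which move calcium across a membrane in exchange for sodium, 3 rose and 0 fell (median 0.16). Slc24a2, a potassium-dependent exchanger of neurons, read 10.42, 10.50 and 10.48 in the 6wk arrays, against 9.62, 9.84 and 9.79 in the P7 arrays (log2 difference 0.71, limma adjusted p = 0.00369). Slc8a2, the exchanger NCX2, differed by 0.72 and the mitochondrial exchanger Slc8b1 by 0.51, and neither passed when P7 replicate 3 was omitted (adjusted p = 0.0564 and 0.0517, in a fit that called 9.22% of all genes). Over the 6 fits that omit an array the differences ranged from 0.63 to 0.82 for Slc8a2 and from 0.46 to 0.53 for Slc8b1.

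Of 10 measured genes of store calcium release and refilling, 4 rose and 1 fell (median 0.29). The 2 IP3 receptors measured, Itpr2 and Itpr3, channels that release calcium from the endoplasmic reticulum, moved in opposite directions. Itpr2 read 7.68, 7.78 and 7.82 in the 6wk arrays, against 8.81, 8.86 and 8.96 in the P7 arrays, and fell by 1.12 (SE 0.09, limma adjusted p = 0.000905). Itpr3 read 8.39, 8.24 and 8.22 in the 6wk arrays, against 7.37, 7.45 and 7.44 in the P7 arrays, and rose by 0.86 (SE 0.09, adjusted p = 0.00184). Ryr1, a ryanodine receptor, rose by 0.58 (adjusted p = 0.00484). Orai3, a store-operated channel subunit, rose by 0.72 (adjusted p = 0.00265), and Stim1, the store's calcium sensor, named after its value was seen, by 0.57 (adjusted p = 0.00637).

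**Figure D4:**
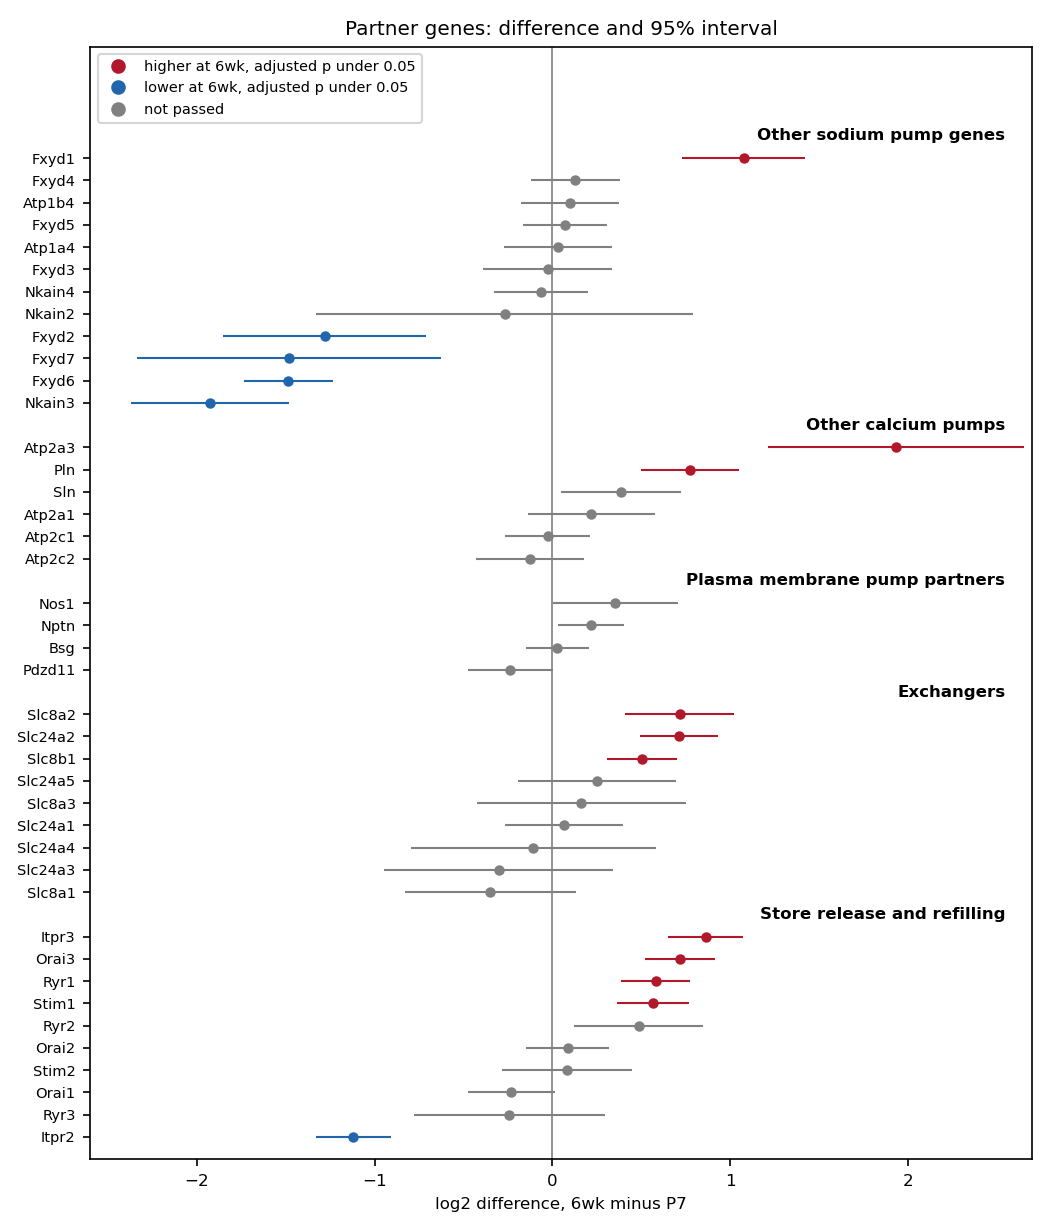
Log2 difference, 6wk minus P7 (horizontal axis), with 95% intervals for 41 partner genes in 5 lists. Red marks the 10 genes called higher at 6wk, blue the 5 called lower and grey those that did not pass.

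Genes with the most similar profile over the 6 arrays were sought among 1663 genes with a mean at or above the median gene and a range of at least 1. The arrays form 2 age groups, so the correlation of a called gene mostly reflects the age difference, and 8.54% to 13.3% of the 1663 genes reached r of 0.95 with each called pump. Prag1 and Bhlhe40 were closest to Atp1b2 (Pearson r = 0.9999 and 0.999), and Kank2 and Prag1 to Atp2a2 (0.993 for both). Slc20a2 and Plcb4 were closest to Atp2b3 (0.999 for both), Sorl1 and Gpd1 to Atp2b2 (0.998 and 0.997), and Nol4l and Mpzl1 to Atp2b1 (0.999 and 0.998). For the 3 pumps that did not pass, 0.962% to 1.68% of the genes reached that r. Rian and Alpl were closest to Atp2b4 (0.993 and 0.984), and Rian read 12.05, 13.10 and 12.65 in P7 replicates 1, 2 and 3. Flrt1 and Coro6 were closest to Atp1b1 (0.990 and 0.977), and Dapl1 and Nrk to Atp1b3 (0.981 and 0.971). No p-value is attached to these correlations.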

How the data were processed

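The deposited table holds 1 log2 expression value per row and array for 23750 rows and 6 arrays, as the authors processed it. The submitters' processing notes name RMA (which corrects background, normalizes arrays and summarises probes), Affymetrix Power Tools and mm9. Versions, order and filters: not given in the sources used here. Per the labels' protocols, ribosomal RNA was removed before labelling. The annotation table of the array gave row names (18463 with 1 symbol, 1799 with several, 3488 with none). Where a gene had several rows, that with the highest 6-array mean stood for it, giving 17858 genes. Differences are 6wk minus P7 from limma 3.58.1 in R 4.3.3 (lmFit, eBayes, no block), two-sided. Benjamini-Hochberg adjustment was over all genes, with a threshold of 0.05. The step was also run on simulated data with independent arrays and the same spread of a gene at both ages. In the real arrays the SD of Atp2b4 was 0.08 at 6wk and 0.74 at P7, so the simulation does not cover such genes. The number of arrays limits the precision.

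The members, lists and tests were chosen with earlier results of these data known. All 8 members are named, with up to 4 called genes of each partner list by size of difference, and the 2 most correlated genes of each member. Fxyd1, Stim1, Nptn, Bsg, Nos1 and Nkain2 fall outside this rule and were named after their values were seen. The Y-linked Eif2s3y and the cell type markers are not covered by it either.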

Additional observations from a re-analysis of the deposited data

How the results depend on the processing

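Of the 5 called members, Atp1b2, Atp2a2, Atp2b2 and Atp2b3 were called in every alternative (other scalings, no dim rows, array weights, another variance prior, the replicate block, each array left out, P7 replicate 1 as the only P7 array, mean of a gene's rows), with differences of 0.62 to 0.81, 0.43 to 0.69, 0.55 to 0.74 and 0.94 to 1.24. Atp2b1 ranged from -0.61 to -0.39 and lost its call without P7 replicate 3 (-0.52). On leaving out single arrays the differences ranged from -0.57 to -0.48 for Atp2b1 and from -0.88 to -0.15 for Atp2b4, which passed without P7 replicate 1 (-0.88) and with array weights (-0.61, adjusted p = 0.0112). With P7 replicate 1 as the only P7 array Atp1b1 passed (0.39) and Atp2b4 changed sign (0.31). limma's default estimate of the weights did not converge, so its gene-by-gene estimate was used, which gave P7 replicate 3 a weight of 8.76 and the other arrays 0.239 to 1.89. Under these weights 2 members were lower, 16 partner genes higher, and 3586 genes higher and 5836 lower overall. Leaving out single arrays gave 0 to 2 members lower, 3 to 7 partner genes lower, and 682 to 1788 genes higher and 965 to 3073 lower overall. Same-numbered arrays' deviations from their age means correlated at 0.27, 0.14 and -0.06, and those of differently numbered arrays at -0.28 to 0.21. Deviations within an age sum to 0, so these values cannot decide whether the replicate numbers are a pairing. The replicate block changed no call of a member (Atp2b3 1.11, adjusted p = 0.00677) and gave 3273 calls against 3870. Within-array ratios with P7 replicate 1 as the only P7 array changed by -0.34 (Atp1b1 to Atp1b2), 0.32 (Atp1b1 to Atp1b3, against -0.03), -1.16 (Atp2b1 to Atp2b2), -1.56 (Atp2b1 to Atp2b3), -0.92 (Atp2b1 to Atp2b4), -0.39 (Atp2b2 to Atp2b3), 0.25 (Atp2b2 to Atp2b4) and 0.64 (Atp2b3 to Atp2b4). On leaving out single arrays the ratio of Atp1b1 to Atp1b3 ranged from -0.21 to 0.19 (0.19 without P7 replicate 2 and 0.02 without 6wk replicate 1) and that of Atp2b1 to Atp2b4 from -0.42 to 0.41 (without P7 replicate 1). After quantile normalization, an alternative chosen after seeing the data, these pairs changed by 0.10 and 0.014, and the other 7 kept their direction. The cause of these changes was not tested. Signal over background was not analysed here.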
